A study of Drosophila melanogaster with 2 samples.

Results

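Of the 7029 binding sites of the CG15269-eGFP protein that the authors kept, 2050 lay in introns of protein-coding genes shorter than 50 kb, 29.2% of the list (exact Clopper-Pearson 95% interval 28.1 to 30.2%). They were chosen by position only: the summit of the peak had to lie more than 500 bp from any annotated transcription start site (TSS), in no exon, and inside a protein-coding gene, and the longest such gene at the summit, called the host, had to be under 50 kb. The sites come from chromatin immunoprecipitation with sequencing (ChIP-seq) on Drosophila melanogaster embryos of both sexes, taken whole at 6 to 18 h. The embryos were from a transgenic line that stably expresses CG15269 with GFP fused to its C-terminus, and the immunoprecipitation used anti-GFP per the sample descriptions, although the labels' entry for the antibody is CG15269 itself. The series holds 1 group of 2 biological replicates, numbered 2 and 3, so it has no treated, mutant or untagged group. All cell types of the embryo are pooled, so that a site used in few cells and a weak site in many cells cannot be told apart, and the fusion was expressed in addition to whatever the line makes itself, which the labels do not describe.

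The sites were set beside 913 summits in introns of genes of 50 kb or more, 2557 summits lying 500 bp or less from a protein-coding TSS, called promoter summits here, and 1128 intergenic summits over 500 bp from any TSS. The remaining 381 summits of the list belong to none of these. A peak can hold several summits, as in CG9663, NFAT and tara. Each summit is counted as a site of its own in all counts and tests. The value of a peak is the authors' signal, whose scale is unknown here. The files hold no read counts, and the depth of the libraries is therefore unknown. Intervals below are exact Clopper-Pearson 95% intervals that cover counting error only. Peaks are not biological replicates, so a p-value over peaks describes these 2 libraries only. Positions are dm6 coordinates counted from 1.

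Introns are removed from the transcript, but their DNA often carries enhancers, short stretches where sequence-specific proteins bind and act on a promoter at a distance. In flies many enhancers of early and mid embryogenesis lie in the first introns of regulatory genes, and alternative promoters of the same gene often lie between its introns. The gene CG15269 is annotated in RefSeq as coding for an uncharacterized protein, so no known target sequence could be looked for.

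Each of the 6 sites printed next was richer in A and T at the summit than in its own flank, by amounts that differ widely. They are the 6 strongest sites on 2L, 3L, 3R and X, in order of signal, each as the 101 bp at the summit followed by the 101 bp of its flank, centred 400 bp away. The sequences are read from the plus strand of the RefSeq copy of the release 6 genome, 5′ to 3′. Capitals mark words of 8 bases that were found more often at summits than in flanks across all 2050 sites, as described further on.
CG11050 summit, chr2L:6612662-6612762: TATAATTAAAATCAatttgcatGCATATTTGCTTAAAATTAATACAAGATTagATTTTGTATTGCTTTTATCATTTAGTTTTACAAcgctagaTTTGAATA
CG11050 flank, chr2L:6612262-6612362: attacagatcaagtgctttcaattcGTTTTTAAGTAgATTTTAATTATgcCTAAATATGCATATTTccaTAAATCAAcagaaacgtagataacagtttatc
CG32772 summit, chrX:4910316-4910416: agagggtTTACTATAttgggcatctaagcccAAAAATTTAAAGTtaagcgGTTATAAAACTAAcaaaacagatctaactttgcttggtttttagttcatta
CG32772 flank, chrX:4909916-4910016: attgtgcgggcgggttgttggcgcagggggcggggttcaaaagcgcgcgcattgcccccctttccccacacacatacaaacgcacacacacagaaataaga
Trl summit, chr3L:14759463-14759563: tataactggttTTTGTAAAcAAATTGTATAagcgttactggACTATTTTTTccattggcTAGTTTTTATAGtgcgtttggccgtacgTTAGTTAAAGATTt
Trl flank, chr3L:14759063-14759163: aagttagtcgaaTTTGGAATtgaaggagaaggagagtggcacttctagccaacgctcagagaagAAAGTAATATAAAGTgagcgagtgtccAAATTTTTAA
Lk6 summit, chr3R:11761008-11761108: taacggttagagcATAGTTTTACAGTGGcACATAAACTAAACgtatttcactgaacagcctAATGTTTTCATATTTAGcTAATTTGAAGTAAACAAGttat
Lk6 flank, chr3R:11761408-11761508: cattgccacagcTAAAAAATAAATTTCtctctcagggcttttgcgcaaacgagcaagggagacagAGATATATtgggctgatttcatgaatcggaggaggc
CG9663 summit, chr2L:3302138-3302238: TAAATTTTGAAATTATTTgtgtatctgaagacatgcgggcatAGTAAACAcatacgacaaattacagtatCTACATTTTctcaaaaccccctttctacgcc
CG9663 flank, chr2L:3301738-3301838: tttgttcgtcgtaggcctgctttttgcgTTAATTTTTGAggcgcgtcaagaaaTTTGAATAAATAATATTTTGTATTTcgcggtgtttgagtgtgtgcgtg
CG9837 summit, chr3R:8811636-8811736: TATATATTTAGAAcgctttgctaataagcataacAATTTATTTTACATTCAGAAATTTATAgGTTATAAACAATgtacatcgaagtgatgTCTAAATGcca
CG9837 flank, chr3R:8811236-8811336: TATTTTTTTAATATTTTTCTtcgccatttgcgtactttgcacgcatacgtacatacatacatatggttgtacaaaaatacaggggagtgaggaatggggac
Of 101 bases, those that were A or T numbered 80 at the summit and 74 in the flank of CG11050, 70 and 42 in CG32772, and 69 and 62 in Trl. They numbered 70 at the summit and 56 in the flank of Lk6, 66 and 62 in CG9663, and 75 and 64 in CG9837. The flank in CG11050 was thus richer in A and T than the summits of the 4 sites in CG32772, Trl, Lk6 and CG9663, and the difference within a site ran from a few bases in CG9663 and CG11050 to the wide one in CG32772.

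The strongest site lay in CG11050 (FBgn0031836), a gene of 6107 bp with no named product, on 2L (peak 6612442 to 6612947, summit 6612712). Its signal was 7512, rank 3 of the whole list, and it was 3775 in replicate 2 and 3772 in replicate 3, ranks 4 and 3 of the replicates' own lists. The summit was 1025 bp from the nearest TSS, in an exon-free stretch of only 140 bp. The next site lay in CG32772 on X (4910011 to 4910608), with a signal of 5367 and with 2715 in replicate 2 and 2645 in replicate 3. The third was in Trl (FBgn0013263) on 3L (14759199 to 14759790), 1536 bp downstream of a TSS of this gene, which codes for the GAGA factor, a DNA-binding protein that keeps promoters open. Its signal was 5327, with 2540 in replicate 2 and 2806 in replicate 3. HmgD, the gene of a high mobility group protein that bends DNA, followed on 2R (21703057 to 21703705, signal 5224, with 2252 in replicate 2 and 2956 in replicate 3). Lk6, a kinase that phosphorylates the translation factor eIF4E, followed on 3R (11760816 to 11761462, signal 5131, with 2766 in replicate 2 and 2359 in replicate 3). All 5 were among the 21 strongest peaks of each replicate's own list.

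The 25 strongest sites lay in 25 different genes and ranked between 3 and 118 in the whole list, with signals from 2385 to 7512. Of these 25, 22 were in a first intron, here an intron that comes first in at least 1 annotated transcript, and 18 were within 2000 bp of a TSS. Of all 2050 sites, 1532 (74.7%) were in a first intron and 952 within 2000 bp of a TSS. The hosts are named here with what their proteins do, and no kind of gene was tested among the 25. trx, whose protein methylates histone H3 lysine 4, had a signal of 3020 (1481 in replicate 2 and 1517 in replicate 3). wde, a cofactor of the H3 lysine 9 methyltransferase, had 2859 (1299 in replicate 2 and 1542 in replicate 3), and this site had the lowest A+T content of the 25, 47.1% in the 51 bp at the summit. simj, the gene of a NuRD complex subunit, had 2816 and the highest A+T content, 86.3%, and its signal was the most uneven of the 25, 1115 in replicate 2 against 1698 in replicate 3. Gug, the Atrophin corepressor, had 2563, CHES-1-like, a forkhead factor, had 2932, Adf1, a promoter-binding factor, had 2510, and Hr3, a nuclear receptor of the ecdysone response, had 2402. NFAT, a Rel-domain factor, had 3344.

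Raf, the kinase that activates MEK, had a signal of 2644 and for, a cGMP-dependent protein kinase, had 2385. norpA, the phospholipase C of phototransduction, had 2798, and chif, the Dbf4-like activator of a replication kinase, had 3491. tara, a SERTA-domain regulator, had 2561 and Reph had 2649. The rest were CG9663 (3932), CG12769 (3603), CG9837 (3564), CG3726 (3087), CG4496 (2699) and CG31635 (2640), which have no named product. In 16 of the 25 genes a peak was also found within 500 bp of a TSS of the host. It was weaker than the site in the intron in all 16, for example 868 against 5327 in Trl and 1159 against 2385 in for, which follows in part from ranking on the intronic signal.

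**Figure D1:**
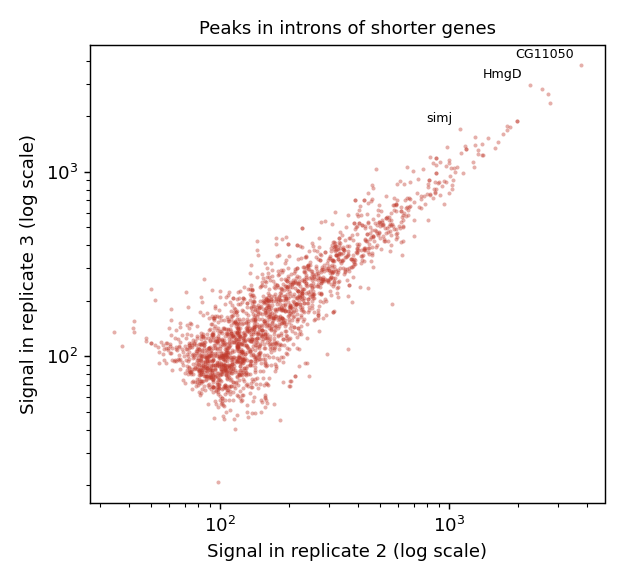
Signal of each site in introns of shorter genes in the authors' list for replicate 2 (x axis, log scale) and for replicate 3 (y axis, log scale), 1 point for each of the 2019 sites with an overlapping peak in both lists. The lowest points have 34.3 in replicate 2 and 20.7 in replicate 3, the medians are 150.2 and 147.7, and CG11050 is at the top with 3775 and 3772, with simj above the bulk of points of like signal.

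Both replicates gave nearly all of the sites. A peak of replicate 2's own list overlapped 2029 of the 2050, and a peak of replicate 3's list overlapped 2040. These lists are unthresholded and hold 30000 peaks each. Both lists had a peak at 2019 sites (98.5%) and at 901 of the 913 long-gene intron summits (98.7%). Where several peaks overlapped, the strongest was taken, so that neighbouring sites can share a value. Across the 2019 sites with a peak in both, signals had a Spearman rank correlation of 0.803, and the replicates' summits lay a median of 16 bp (replicate 2) and 11 bp (replicate 3) from the summit of the combined list. These figures are in part built in, since the combined list was derived from the same libraries. Among as many of the strongest peaks of each replicate as the combined list holds, both replicates had a peak at 78.7% of the sites (interval 76.8 to 80.4%) and at 76.6% of the long-gene intron summits (73.7 to 79.3%), which did not differ by Fisher's exact test (two-sided, odds ratio 1.13, p = 0.212). The difference passed where peaks had to overlap by 50% in both directions (odds ratio 1.21, exact p = 0.0211) and where only the upper part of each replicate's list was used (1.42, exact p = 3.02e-05).

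The sites were denser in introns of shorter genes than in introns of long genes. The introns of shorter genes held 2050 summits on 26.8 Mb that met the rule for position, 76.4 per Mb, and those of long genes 913 on 24.8 Mb, 36.9 per Mb. The ratio was 2.07 (exact binomial test on the share of bases, two-sided, p = 1.59e-80). Distance from the TSS moved with this: the bases of shorter genes were closer to a TSS. Within 500 to 2000 bp of a TSS the densities were 110.8 and 76.0 per Mb (ratio 1.46, exact p = 6.54e-07). Between 2000 and 5000 bp they were 70.2 and 56.9 per Mb (1.23, exact p = 0.00554), and beyond 5000 bp 51.3 and 26.4 per Mb (1.95, exact p = 7.71e-25), with the shorter genes first in each pair. Distance still differed in the last class, with 0.572 and 7.82 Mb of bases lying beyond 20000 bp. The densities were 55.6 and 42.5 per Mb at 5000 to 10000 bp and 46.9 and 33.0 per Mb at 10000 to 20000 bp. Beyond 20000 bp they were 31.5 and 11.9 per Mb. The ratio of 1.95 therefore does not compare bases at like distance, and these finer classes were not tested.

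**Figure D2:**
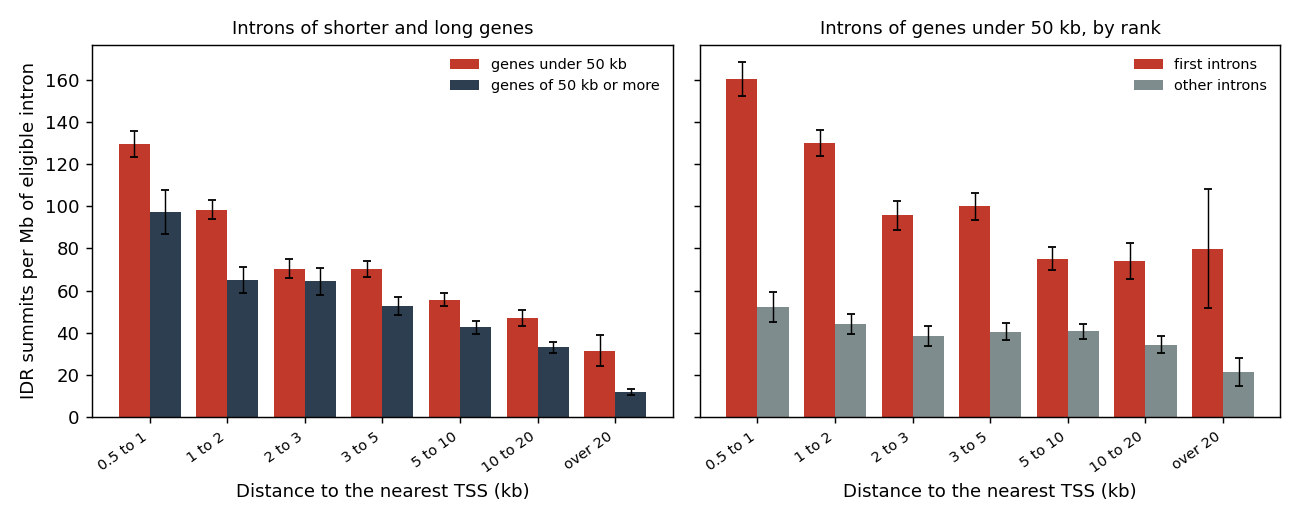
Summits of the combined list per Mb of eligible intron (y axis) by distance to the nearest TSS in kb (x axis), on the left for genes under 50 kb and genes of 50 kb or more, on the right for first introns and other introns of genes under 50 kb. Error bars are the square root of the count. Density in the shorter genes was 129.5 per Mb at 0.5 to 1 kb and 31.5 per Mb beyond 20 kb, and first introns were above other introns in each of the 7 distance classes.

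First introns carried most of the sites. They held 1532 of the 2050, 74.7% (interval 72.8 to 76.6%), on 51.7% of the eligible bases, which gives 110.5 summits per Mb against 39.97 per Mb in other introns (ratio of shares 1.45, exact binomial test, two-sided, p = 2.11e-101). First introns are closer to a TSS, but the excess was also found at fixed distance. At 0.5 to 1 kb the densities were 160.2 per Mb in first and 52.2 per Mb in other introns, and at 5 to 10 kb they were 75.2 and 40.6 per Mb. Beyond 5000 bp from any TSS 276 of 497 sites were in first introns, 55.5% against 38.01% of bases (exact p = 3.01e-15). Other introns showed little slope with distance up to 10 kb, between 38.3 and 52.2 per Mb.

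Few sites lay close to exons, with 49 of the 2050 (2.39%) within 100 bp of one, against 13.3% of every 50th eligible base of the same introns. The median distance to the nearest exon was 1128 bp, against 990 bp for these bases, and the median exon-free stretch that held a site was 5300 bp, against 4980 bp. Stretches under 1000 bp held 27.1 summits per Mb and those of 2000 to 5000 bp held 98.3 per Mb. The strongest site of all, in CG11050, was an exception with its exon 69 bp away. The median distance to a TSS was 2243 bp, against 3390 bp for the eligible bases. Of the sites, 376 (18.3%) lay upstream of the nearest TSS of their own host, that is between alternative promoters, as did 12.7% of the eligible bases. Lk6 (979 bp upstream), chif (975 bp) and Reph (926 bp) are examples. In 106 cases a second protein-coding gene also covered the summit, and in 14 a gene without a protein product did.

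The limits of the rule cut through a continuous range. The closest sites inside the 500 bp limit were in CG31612 at 501 bp (signal 2103), TP53INP at 503 bp (186) and pug at 503 bp (236). The closest intronic summits left out were at 500, 496 and 495 bp, with signals of 277, 604 and 787. At 500 to 600 bp there were 102 sites with a median signal of 410, and at 400 to 500 bp 95 summits with 290. At the limit on host length, NetA (49917 bp, signal 537), Dyrk2 (49649 bp, 255) and CG42673 (49494 bp, 284) were inside. ab (50403 bp, 504), pHCl-1 (50452 bp, 175) and ftz-f1 (50703 bp, 334) were outside.

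The chromosome arms did not share the sites evenly. Chromosome 4 held 1 site on 0.533 Mb, 1.88 per Mb, a ratio of 0.0246 to its share of eligible bases (exact binomial test, Benjamini-Hochberg adjusted p = 8.42e-16). That site lay in Asator, a tau tubulin kinase gene, with a signal of 219 (123 in replicate 2 and 107 in replicate 3). On X 427 sites gave 95.2 per Mb (ratio 1.25, exact adjusted p = 3.52e-06) and on 3L 441 gave 86.5 per Mb (1.13, exact adjusted p = 0.00667). On 2L 301 sites gave 61.4 per Mb (0.804, exact adjusted p = 4.02e-05). 2R and 3R, with 71.6 and 76.5 per Mb, did not pass (exact adjusted p = 0.229 and 0.960). With 1 site counted per host gene only the call on chromosome 4 was left (ratio 0.0480, exact adjusted p = 1.64e-07), and X had a ratio of 1.15 (0.105). The 3L call was also not made with hosts under 30 kb (1.06, exact adjusted p = 0.340) and among peaks above the median signal (1.04, exact adjusted p = 0.688), and 2R was called, as lower, from replicate 3 alone (0.873, exact adjusted p = 0.00721).

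In signal the sites stood between the other classes. Their median was 284, with quartiles of 201.3 and 482, against 256 in introns of long genes and 341 at promoters. Above the median of the whole list were 48.8% of the sites (interval 46.6 to 51.02%), 42.6% of the long-gene intron summits (39.4 to 45.9%) and 57.6% of the promoter summits (55.7 to 59.6%). The sites were above the long-gene introns (Fisher's exact test, two-sided, odds ratio 1.29, p = 0.00187) and below the promoters (0.701, exact p = 2.70e-09). The first of these differences did not pass at fixed distance from a TSS, with odds ratios of 1.36 at 500 to 2000 bp (exact p = 0.0504), 1.15 at 2000 to 5000 bp (0.402) and 1.05 beyond (0.744). Comparing the strongest summit of each gene turned the first direction round (odds ratio 0.651), where each long gene draws on more summits than each of the 1049 shorter ones.

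**Figure D3:**
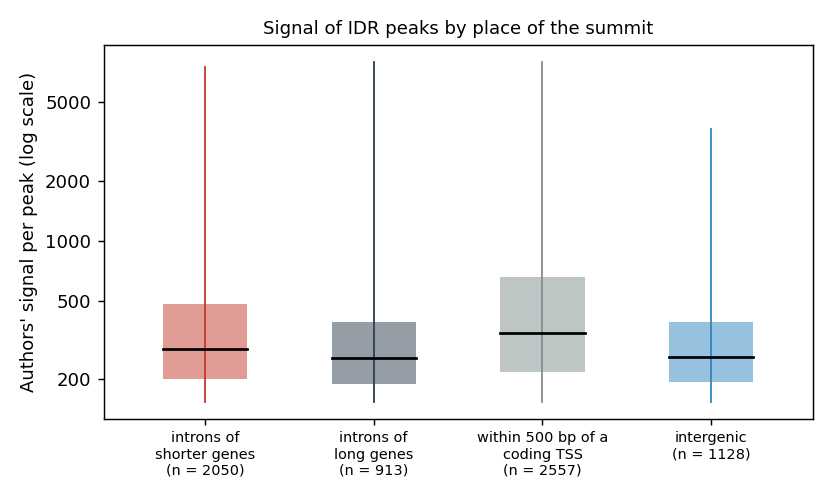
Authors' signal per peak (y axis, log scale) by place of the summit (x axis). Boxes span the quartiles, black lines are medians and thin lines run from the lowest to the highest peak. The medians are 284 in introns of shorter genes, 256 in introns of long genes, 341 within 500 bp of a coding TSS and 258 in intergenic sequence.

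The authors' threshold kept the 7029 strongest peaks of the unthresholded list called on both replicates. The share kept therefore reads the same signal at another cut-off and is no second measure, and it gave the same order. Of 8925 peaks of that list in introns of shorter genes, 22.97% were kept, against 16.6% of 5486 in introns of long genes and 39.3% of 6500 at promoters. Within the sites, the 513 strongest (signals of 482 and more) had a median TSS distance of 1702 bp and 78.8% in first introns, and the 512 weakest (201.1 and less) had 2552 bp and 72.3%.

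The 2050 sites fell into 1049 host genes. That is 13% of the 8047 protein-coding genes under 50 kb with any eligible intronic base (interval 12.3 to 13.8%). Hosts were long for this class, with a median of 15696 bp against 2989 bp for eligible genes without a site, as they must be in part, since longer introns offer more sequence. A single site was found in 593 hosts, 2 or more in 456 and 5 or more in 79, and hosts of several sites held 1457 of the 2050. The nearest other summit of the list, which can be a summit of the same peak, was within 1000 bp for 26.1% of the sites. The share was 21.1% for the long-gene intron summits.

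tara held the most, 12 sites in 29.3 kb of eligible intron, all in first introns, with signals from 160 to 2561 and a median of 404. Some of these share a peak, as the summits at 16236114 and 16236325 do (peak 16235878 to 16236494). Its strongest site (summit 16236972 on 3R) had 1170 in replicate 2 and 1389 in replicate 3. The next had 1038, with 390 in replicate 2 and 703 in replicate 3. tou, whose protein is a subunit of chromatin remodelling complexes, held 11 (signals 158 to 974). CHES-1-like held 10 in 14.9 kb, the densest of the 10 hosts with the most sites, at 0.669 per kb. Its signals ran from 188 to 2932 with a median of 777, and one of its weakest sites (205.1) had a peak in replicate 2 only. Mob2, an activator of the kinase Tricornered, held 10 sites with a median of 211.

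Raf held 8 sites, none of them in a first intron. Their signals were 2644, 1870, 927, 819, 531, 480, 435 and 295, and 7 of the 8 summits lay on X between 2297728 and 2306557. In replicate 2 these 8 had 1391, 1027, 430, 365, 253, 186, 241 and 136, and in replicate 3 they had 1241, 851, 508, 439, 279, 287, 195 and 184. The order was thus nearly the same in both. Zdhhc8, a palmitoyltransferase gene, also held 8 with none in a first intron. The others of the 10 were kibra (9), an upstream regulator of the Hippo pathway, atos (8), gpp (8), the H3 lysine 79 methyltransferase, and nkd (8), an antagonist of Wnt signalling. Raf, gpp and Zdhhc8 had no summit within 500 bp of any of their TSSs, while CHES-1-like (1601), nkd (1359) and Mob2 (1187) had strong ones.

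Hosts often carried a promoter summit as well. A summit within 500 bp of a TSS was found for 543 of the 1049 hosts, 51.8% (interval 48.7 to 54.8%), and for 1435 of the 6998 eligible genes without a site, 20.5% (19.6 to 21.5%), where 24.6% of all eligible genes had one. Hosts have longer introns, and the shares were also compared at like amounts of eligible sequence. They were 40% and 19.6% below 1000 bp, 50.9% and 24.4% at 1000 to 3000 bp, 54% and 24.1% at 3000 to 10000 bp, and 51.6% and 17.5% above, with hosts first. No test was made of this description.

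Genes of several functional lists hosted sites, and the lists differed in how much intron they offer. Of 57 eligible genes of signalling pathways 29 were hosts (50.9%), with 133.6 sites per Mb where all eligible genes had 76.4 per Mb, and a median highest signal of 412 beside 375 over all hosts. The strongest were Stat92E, the transcription factor of the JAK/STAT pathway (signal 1090, with 552 in replicate 2 and 521 in replicate 3), N, the Notch receptor (1085, with 557 in replicate 2 and 516 in replicate 3) and dlp, a glypican that binds Wnt proteins (1043, with 592 in replicate 2 and 466 in replicate 3). Of 69 developmental transcription factor genes 16 were hosts (23.2%), and although these genes offer much intron (a median of 8.57 kb, against 0.439 kb over all eligible genes) their density was 50.99 per Mb. zfh1 had 1034, bowl had 944 with 6 sites, and the Hox gene Abd-B had 697 (270 in replicate 2 and 439 in replicate 3) with 1 site in 28.6 kb.

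Chromatin factors had 9 hosts of 41 genes with 17 sites, 133.6 per Mb, and a median highest signal of 1187. They were led by Trl (5327), trx (3020) and the remodeller gene Mi-2 (1776, with 902 in replicate 2 and 886 in replicate 3). Metabolic genes had the highest density, 208.5 per Mb, from only 24 sites, with 13 hosts of 31. bmm, the triglyceride lipase Brummer, had 2044 (822 in replicate 2 and 1203 in replicate 3), Zw, glucose-6-phosphate dehydrogenase, had 1837 (1025 in replicate 2 and 810 in replicate 3), and the glutamine synthetase gene Gs2 had 1234. Nuclear receptors and genes of the ecdysone response had 6 hosts of 13, with Hr3 (2402), ImpL2, a secreted insulin-binding protein (1586), and knrl (317).

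Of the tissue lists, epithelial polarity and epidermis had 12 hosts of 30 (yrt with 1278, crb with 873, Mcr with 827, at 94.1% A+T). Neuronal function and axon guidance had 10 of 30 with 55.6 sites per Mb (fra with 581, NetA with 537, Nrg with 491). Muscle and sarcomere had 7 of 28 (rhea, the gene of talin, with 1300, how with 691, mew with 597). Cytoskeleton and trafficking had 10 of 34 (Dhc64C with 1582, Rab11 with 1023, jar with 1005) and RNA binding and splicing 5 of 27 (brat with 1399, Sxl with 1037, how with 691). Of 24 eligible cytoplasmic ribosomal protein genes, which have a median of 0.1205 kb of eligible intron, 0 were hosts. Among all eligible genes with under 1000 bp of such intron, 50 of 5106 were hosts (0.979%), so 0 of 24 says little. All other 10 lists were above the 13% of all eligible genes in share of hosts. Each of them also offered more intron per gene than the 0.439 kb of all eligible genes, so the density per Mb was compared as well. Density itself differed with the eligible intron per gene. It was 37.6 per Mb for genes with under 1000 bp, 105.9 at 1000 to 3000 bp, 94.4 at 3000 to 10000 bp and 70.3 above. The lists were not compared at like amounts of intron. The 10 lists with sites held between 13 and 85 sites each, and their densities were not tested. In density 8 of the 11 lists were above 76.4 per Mb, nuclear receptors only just (76.8 per Mb). The lists of developmental transcription factors, neuronal genes and, with no site, ribosomal protein genes were below it.

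The A+T content was highest at the summits. In the 51 bp at the summit it was 67.8% ± 10.1 (SD over 2050 sites), against 59.0% in windows 1000 bp to either side. It was higher at the summit than the mean of its 2 flanks for 1536 sites, lower for 455 and equal for 59 (exact sign test, two-sided, p = 1.55e-136). These flanks could lie in exons, which the summits by rule could not. How far this goes into the difference in A+T content was not tested. At 200 bp from the summit it was 57.1% on one side and 56.2% on the other, below the level at 1000 bp. The long-gene introns had 67.7% ± 10.1 at the summit (n = 913), and the share of summits above the list's median A+T content, 46.98% of the sites and 48.4% of the long-gene intron summits, did not differ (Fisher's exact test, odds ratio 0.944, p = 0.474). The 513 strongest sites had 71.0% and the 512 weakest 65.2%. Across the 2050 sites signal and A+T content had a Spearman rank correlation of 0.224, as a description of peaks from the same libraries. Content under 50% was found at 118 sites (5.76%), among them wde.

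**Figure D4:**
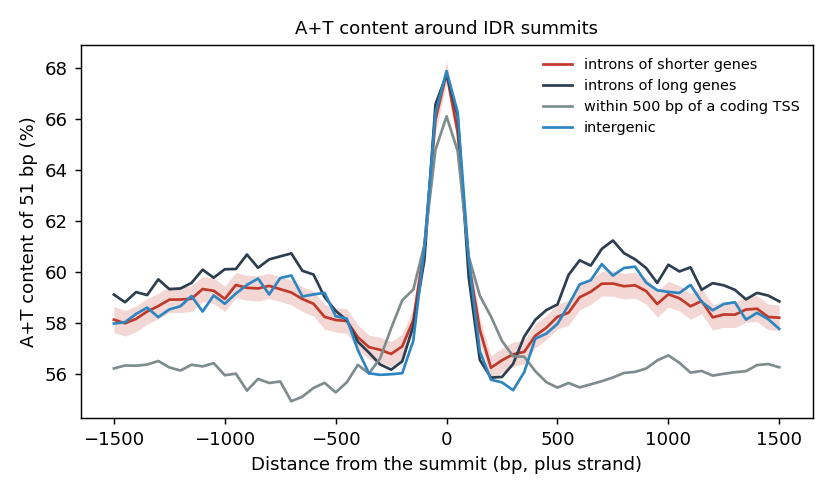
Mean A+T content of 51 bp windows in % (y axis) by distance from the summit in bp (x axis, plus strand) for 4 classes of summits, with a band of 2 standard errors for the sites in introns of shorter genes. The sites reach 67.8% at the summit and lie between 56.2 and 57.1% at 200 bp, and promoter summits reach 66.1% and are lower than the sites at 1000 bp.

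Words of 8 bases were counted in the 101 bp at each summit and in the 101 bp centred 400 bp away, with reverse complements merged. Of 4485 words held by at least 20 windows, 578 (12.9%) were found at more summits than flanks and 111 (2.47%) at fewer (exact sign tests, Benjamini-Hochberg adjusted, threshold 0.05). Without replicate 3, from the list of replicate 2 alone, these counts were 356 and 72, and without replicate 2 they were 651 and 131. ATATTTAA led, at 110 summits and 20 flanks (exact adjusted p = 6.98e-13), followed by TATTATAA at 75 and 9 (9.66e-11) and ATATATTA at 93 and 20 (5.24e-10). Base content went with the calls. Of 136 words made only of A and T 119 were higher at summits, of 1014 words with 7 such letters 364 were, and of 338 with 4 such letters 1 was. Of 338 words with 4 such letters 38 were lower at summits, and of 1842 with 6 such letters 5 were. The lower words with the smallest p were GCAGCAGC at 3 summits and 43 flanks (exact adjusted p = 1.59e-07), CAGCAACA at 8 and 53 (6.09e-07), ACACACAC at 27 and 84 (6.62e-06) and GAGAGAGA at 6 and 41 (1.73e-05).

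A control with the same base content is the reversed word, the same letters read in the opposite order. Of 2301 pairs of a word and its reversal, 81 (3.52%) differed in the number of summits that held them. The more frequent word of each pair is given, so its direction is no result. In 27 of these pairs that word was also called higher at summits than in flanks. First of these was ATATTTGC, at 59 summits, where its reversal was at 9 (exact sign test, adjusted p = 4.13e-07) and 28 flanks had the word (exact adjusted p = 0.0127). Each replicate alone gave this call against the reversal (56 and 12 without replicate 2, exact adjusted p = 0.000142, and 45 and 10 without replicate 3, 0.000919). The call against flanks was lost with host genes under 30 kb, with the strongest site of each host, among stronger peaks and over 1000 bp from a TSS (exact adjusted p from 0.0694 to 0.0936). It was also the word with the smallest p against long-gene introns, 2.88% of sites and 0.767% of 913, but no word passed there (Fisher's exact test, adjusted p = 0.223). ATGCAAAT, at 43 summits and 8 for its reversal (exact adjusted p = 0.000419), was as frequent in flanks, at 50. Genome-wide differences between a word and its reversal enter this control. The sequences below are the 8 strongest sites on 2L, 3L, 3R and X with ATATTTGC, in capitals, within 50 bp of the summit, as 30 bases read 5′ to 3′ on the strand that holds the word.
CG11050, chr2L:6612675-6612704, plus strand: aatttgcatgcATATTTGCttaaaattaat
CG14434, chrX:6863307-6863336, plus strand: gttagaaatgtATATTTGCatacatagctt
CHES-1-like, chrX:7705582-7705611, plus strand: catacattattATATTTGCtagcaactagt
raw, chr2L:8717794-8717823, plus strand: atcaattttttATATTTGCctatcacaata
dar1, chr3L:3632667-3632696, plus strand: catattaacatATATTTGCtcactcttcaa
Paip2, chr3R:12982695-12982724, minus strand: ctctgcttacaATATTTGCgcactaataat
Mob2, chr3L:11555962-11555991, minus strand: tttaaaaacttATATTTGCcaaaaatgtag
InR, chr3R:21590854-21590883, plus strand: aaataagttctATATTTGCtcaccttatca
In plus strand coordinates these matches began between 39 bp before and 27 bp after the summits. The signals were 7512 in CG11050, 1973 in CG14434, 1495 in CHES-1-like, 1320 in raw, 915 in dar1, 674 in Paip2, 648 in Mob2 and 580 in InR, the gene of the insulin receptor.

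None of the 10 words tested for strand was biased to the coding strand of the host. Of 116 matches of ATATTTAA 57 were on the coding strand (exact binomial test, adjusted p = 1), and the shares of the 10 words lay between 47.96 and 56.04%. None had an unadjusted exact p under 0.05.

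Of 24 consensus sequences, searched on both strands within 100 bp of the summit and of a point 400 bp away, 6 (25%) were found at more summits than flanks and 4 (16.7%) at fewer. The TATA box core TATAAA was at 38.8% of summits and 18.6% of flanks (exact sign test, adjusted p = 3.75e-45). The homeodomain core TAATTA was at 18.3 and 13.0% (2.89e-05), the forkhead sequence TGTTTAC at 7.80 and 4.49% (3.90e-05) and the GATA sequence AGATAAG at 4.20 and 2.49% (0.0102). The STAT sequence TTCNNNGAA was at 7.22 and 4.93% (exact adjusted p = 0.0102) and GTATACC at 1.85 and 0.780% (0.0102). GTATACC was searched under the name Ohler 6 element, and whether these letters stand for a core promoter element was not tested. The summit windows are richer in A and T, and how far this goes into these values was not tested. GAGAGAG, the sequence of the GAGA factor, was lower, at 2.20% of summits and 6.59% of flanks (exact adjusted p = 2.27e-11). So were GGAATG of Scalloped (6.34 and 9.76%, 0.000359), GTGGGAA of Su(H) (1.51 and 3.17%, 0.00235) and the E-box CACATG of Twist (8.73 and 11.3%, 0.0161). GTATACC had 33 summits and 7 flanks without replicate 2, a ratio of 4.714 where both replicates gave 2.375, and was not called in windows of 50 bp to each side (exact adjusted p = 0.507). STAT and Su(H) were called in neither replicate alone (exact adjusted p = 0.128 and 0.297 without replicate 2, 0.158 and 0.179 without replicate 3), and without replicate 3 Twist (0.466) and Scalloped (0.0952) were not called. With the flank on the other side, STAT (exact adjusted p = 0.0819), Su(H) (0.0819) and Twist (0.0667) were not called. With hosts under 30 kb, Twist (0.1085) and STAT (0.0533) were not called. Twist was also not called with the strongest site of each host (0.148) or in windows of 50 bp to each side (0.136). The GATA sequence was not called among peaks above the median signal (exact adjusted p = 0.0776) or with the strongest site of each host (0.158). It was also not called in windows of 50 bp to each side (0.214) or in windows without exon (0.0657). The forkhead sequence was not called with the strongest site of each host (0.369). A match is a string of letters, not a bound site.

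**Figure D5:**
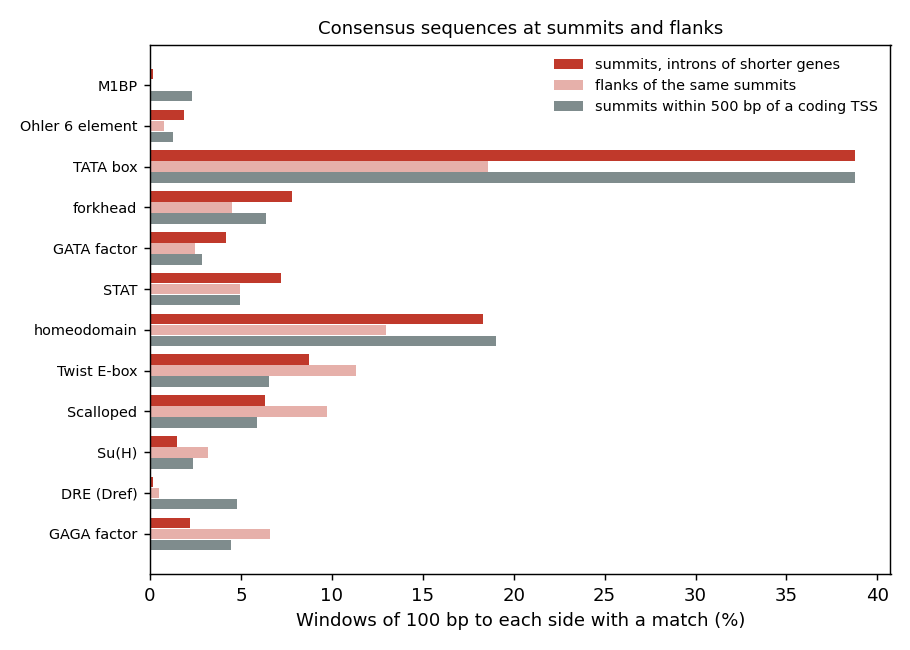
Share of windows of 100 bp to each side with a match in % (x axis) for 12 consensus sequences (rows) at the sites in introns of shorter genes, in their own flanks and at promoter summits. The TATA box core is at 38.8% of both summit classes and 18.6% of flanks, and DRE and M1BP have bars near 0 at the sites.

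Against promoter summits, which have nearly the same A+T content, 5 of the 24 (20.8%) differed by Fisher's exact test. The DRE, TATCGATA, which Dref and BEAF-32 bind at promoters of housekeeping genes, was at 4 of 2050 sites (0.195%, interval 0.0532 to 0.499%) and at 122 of 2557 promoter summits (4.77%, 3.98 to 5.67%, odds ratio 0.0390, exact adjusted p = 2.78e-25). GGTCACACT, the M1BP sequence of core promoters, was at 3 sites (0.146%, interval 0.0302 to 0.427%) and 2.31% of promoter summits (odds ratio 0.0621, exact adjusted p = 3.03e-11). The sites were chosen away from TSSs, so a lower share of promoter sequences is in part built in. In the sites' own flanks the DRE was in 10 and the M1BP sequence in 1 of 2050 windows. Neither differed from the summits (exact sign test, adjusted p = 0.284 and 0.682). GAGAGAG was at 2.20% of sites and 4.46% of promoter summits (0.481, exact adjusted p = 0.000175). STAT (7.22 and 4.97%, exact adjusted p = 0.00845) and the Twist E-box (8.73 and 6.57%, 0.0284) were higher at the sites. The STAT difference was not called without replicate 2 (exact adjusted p = 0.158) or without replicate 3 (0.0588). Of 2348 words 12 (0.511%, and 21 words without replicate 3) differed between the sites and promoter summits, all lower at the sites, led by ATCGATAG (0.195 and 1.88%, exact adjusted p = 1.77e-05) and TATCGATA (0.0976 and 1.53%, 2.92e-05), which overlap the DRE, and CAACACTG (0.244 and 1.56%, 0.00142). TAAATTAA, made only of A and T, was among them (2.73 and 5.12%, exact adjusted p = 0.0174).

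Against introns of long genes no sequence passed the test. Of 24 consensus sequences 0 (0%) and of 1715 words 0 (0%) passed Fisher's exact test with adjustment, with 1 and 48 at an unadjusted p under 0.05. The forkhead sequence was the nearest, at 7.80% of sites and 5.26% of 913 long-gene intron summits (odds ratio 1.53, exact adjusted p = 0.301).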

How the data were processed

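On dm6, 4 peak lists had been made by the authors: 1 per replicate, 1 of both replicates together and, derived from these, an IDR-thresholded list. Peaks had been called against a control, per the notes deposited with the samples. Each list gives a signal per peak, the authors' own value, a −log10 q-value, which is the same deposited value (4.20) for all IDR peaks and so ranks none of them, and a deposited summit offset. The 3 other lists hold 30000 peaks each, and the IDR list held the 7029 strongest of the combined one. Chromatin was sheared to 200 to 800 bp per the labels. The age used here, 6 to 18 h, is that of the source name and differs from the labels' age entry. The aligner, the caller and the IDR cut-off were applied by the authors with details not given in the sources used here.

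Gene positions came from Ensembl release 115 (18164 genes without transposable elements, 13945 protein-coding, on 6 arms) and sequence from the RefSeq release 6 genome. Eligible bases met the same rule of position as summits. Densities and arms were compared by exact binomial tests, classes of peaks by Fisher's exact test, and summits with their flanks by exact sign tests, with Benjamini-Hochberg adjustment within each family and a threshold of 0.05. The side of the 400 bp flank was set by odd or even row of the list. Hosts were named if they held the 25 strongest sites, the strongest of an arm, the most sites (10 hosts), the 3 strongest of each of 11 gene lists, or lay at the limits of the rule, and CG14434, InR, Paip2, raw and dar1, shown for their sequence, were chosen after their values were seen. Of 585 list names 563 matched a protein-coding gene. The sites, lists and tests were chosen with earlier results of these data known. The statistics were tested on simulated positions. Alternatives were each replicate alone, stricter peaks, other distances, host lengths, windows, flanks and overlap rules. Calculations used Python 3.11.15, numpy 2.4.6, pandas 2.3.3, scipy 1.17.1 and matplotlib 3.10.9.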

Additional observations from a re-analysis of the deposited data

How the results depend on the processing

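Of 15 results, recomputed under 15 other settings and in 3 distance classes added after seeing the data, 86 values kept direction and side of the threshold or, for counts of calls, stayed within 1.5 times, which does not mean that each call held, while 18 counts moved further, 6 values reversed, 2 newly passed and 3 no longer passed. No pairing of samples between groups was possible because the series has 1 group. Depth is unknown and limits the precision to an unknown degree. Replicate overlap could not be computed from 1 replicate. In the ranges that follow, the list of 1 replicate stands in for both. Words against flanks, 689 in all, numbered 428 to 782, words against promoters 16 to 21, and the A+T odds ratio against long-gene introns was 0.949 to 1.062, with the value above 1 without replicate 2. The density ratio was 2.119 to 2.125, the first-intron ratio 1.427 to 1.46, and the signal odds ratios 1.281 to 1.289 against long-gene introns and 0.6287 to 0.7488 against promoters. Peaks above the median signal gave 367 words, 2 against promoters and 3 consensus sequences against promoters, with odds ratios of 0.935 for replicate overlap (exact p = 1) and 1.07 for A+T (0.589), both reversed and neither past the threshold. Summits over 1000 bp from a TSS gave 439 words and 31 against promoters, and hosts under 30 kb 331 and 7. The strongest site of each host gave 304 words, 0 against promoters and 1 called arm, and odds ratios of 0.651 (exact p = 0.0105) and 1.27 (0.00151) for signal and 0.624 (0.0611) for replicate overlap, all 3 reversed. On average this takes a maximum over more summits per gene in long genes than in shorter ones. The value of 1.27 sets maxima against all 2557 promoter summits, so it is no test of that difference. Consensus windows of 50 bp gave 3 calls against promoters, word windows of 100 bp 1308 and 150 words, words of 7 bases 1226 and 24, and the reversed word 81. Replicate overlap passed with 50% reciprocal overlap (odds ratio 1.21) and with shorter replicate lists (1.42). By distance the signal odds ratio against long-gene introns was 1.36, 1.15 and 1.05, none of them passing the test (exact p = 0.0504, 0.402 and 0.744). Of the 10 called consensus sequences, TATA box, homeodomain and GAGA passed in each alternative run on them, and 19 values of the other 7 did not pass, with no change of direction. STAT was not called in either replicate alone (ratios 1.261 and 1.265), nor Su(H) (0.68 and 0.7255). The word ATATTTGC lost its call against flanks in 4 settings. The cause of these changes was not tested, except where named.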
